A study of Mus musculus with 18 samples.

Results

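The response of mouse embryonic stem cells to induction of the first of 2 siRNAs against nucleolin (Ncl) was measured on 6 of the 18 arrays of the study. These were the 3 arrays of the Ncl-1 line with tetracycline (Ncl-1 +Tc) and the 3 arrays of the same line without it (Ncl-1 -Tc), paired by their replicate number. A probe was used when its detection p, the chance of such a signal on a probe with no target, stayed below 0.05 on every array of one or both of these groups. That left 17659 of 45281 probes, of which 15146 carried 1 gene symbol and stood for 9949 genes, each read by its brightest kept probe.

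All samples were CGR8 cells, an embryonic stem cell line of mouse strain 129P2/Ola. Each of 3 stable lines made from them carried a tetracycline-inducible siRNA, directed at EGFP, a jellyfish protein with no gene in mice, or at nucleolin with the sequence called nucleolin-1 or nucleolin-2. Every line was kept for 3 days with or without Tc, and each of the 6 groups had 3 arrays. Ncl-1 is a single stable line, the other nucleolin siRNA was in a line of its own (Ncl-2), and nothing in the labels tells whether replicate arrays came from separate cultures, so p-values measure only the spread between these samples. The question put to the Ncl-1 arrays was which transcripts change when nucleolin is depleted.

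Nucleolin is one of the most abundant proteins of the nucleolus, where ribosomal RNA is made and ribosomes are assembled. It binds ribosomal RNA precursors, acts as a histone chaperone during transcription by RNA polymerase I, and also binds messenger RNAs outside the nucleolus. Disturbed ribosome assembly is known to free ribosomal proteins that bind the ubiquitin ligase Mdm2, which stabilises the transcription factor p53. A separate stress pathway, run by the transcription factor ATF4, drives genes for amino acid synthesis, amino acid uptake and tRNA charging when amino acids are short or unfolded protein builds up.

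Mean raw intensity on the Ncl-1 arrays ranged from 360 to 691 units, with both replicate 3 arrays the brightest (677 and 691), and 19165 to 20395 probes per array were detected. Arrays of the same replicate number deviated together from their group means (correlation 0.30 to 0.96 in all 45 pairs across the 6 groups), and replicate 3 stood apart from replicates 1 and 2. As the arrays are paired by replicate number, that number was a block in every fit except those given as without it. Signals below are log2 values after background correction and quantile normalization, and changes are log2 differences ± the standard error (SE) of limma's fit over 18 arrays, with Benjamini-Hochberg adjusted p over all 9949 genes and a threshold of 0.05. The embryonic stem cell label was checked on 8 markers, all detected on all 6 arrays, with a summed linear signal of 104977 to 111998 without Tc and 93938 to 111339 with Tc. Of 7 fibroblast or feeder markers, Thy1 alone was detected on every array, and Col1a1, Lum, Dcn and Postn were detected on none.

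The targeted transcript fell in all 3 pairs. Ncl read 11.21, 11.80 and 12.10 in replicates 1, 2 and 3 without Tc and 7.10, 6.48 and 7.52 with Tc. Every +Tc array lay more than 3 log2 units below every -Tc array, and the probe was still detected on all 6. The change was -4.67 ± 0.22 (SE, n = 3 per group, limma adjusted p = 3.38e-09), which left 3.92% of the signal. A second, dimmer Ncl probe changed by -4.80 ± 0.22. In the EGFP line Ncl changed by 0.07, and its 6 arrays there read 10.90 to 11.78, as the plot of Ncl on all arrays shows. In a bulk sample, fewer cells that make a transcript and less of it per cell cannot be told apart, here and in every change below.

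**Figure D1:**
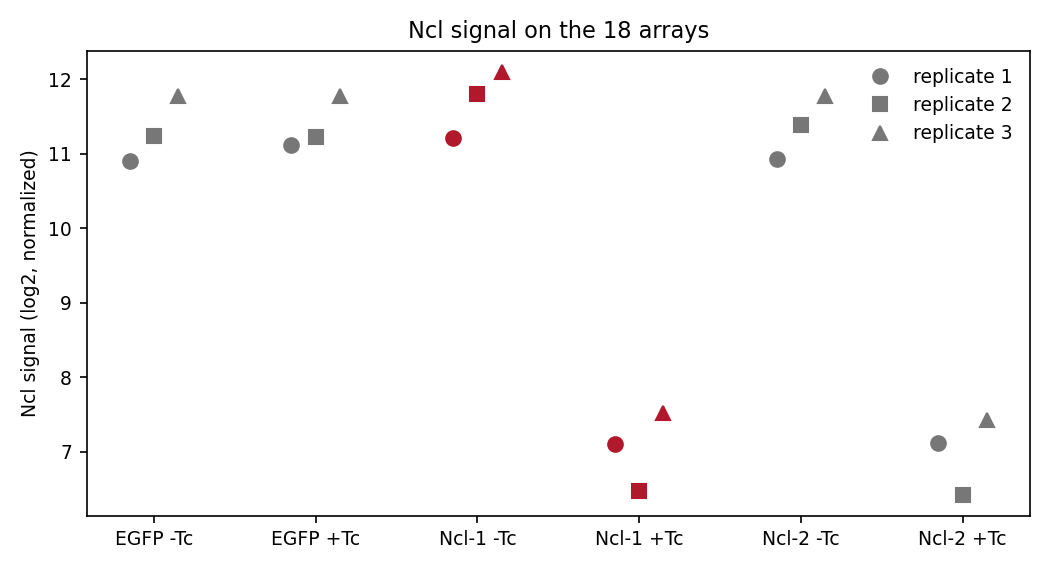
Normalized log2 signal of Ncl on each of the 18 arrays (vertical axis), by line and Tc (horizontal axis), with 1 symbol per replicate number. The 3 Ncl-1 +Tc arrays sit between 6.48 and 7.52 and the 3 Ncl-1 -Tc arrays between 11.21 and 12.10.

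Induction moved many of the measured transcripts by small amounts and a smaller set by large ones. limma called 2834 of 9949 genes, 1497 higher (15% of all tested) and 1337 lower (13.4%), while the median change over all genes was -0.04. Rises were larger than falls. At least 2-fold changes were seen for 736 called genes that rose and 378 that fell, at least 4-fold for 136 and 15, and at least 8-fold for 26 and 4. The 3 pairs moved the same way for 1486 of the called rises and 1325 of the falls, and the 2 groups of arrays did not overlap for 1047 and 781. The calls rest on the same differences, so these counts are no separate support for them. With any 1 of the 18 arrays left out, 1467 calls held, 903 higher (9.08% of all genes) and 564 lower (5.67%). The number of falls went down to 859 without Ncl-1 -Tc replicate 3 and to 832 without Ncl-1 +Tc replicate 3, and without replicate 3 in every group limma called 1217 rises and 890 falls. Without the replicate block it called 877 genes (579 higher, 298 lower). With arrays scaled to the same median in place of quantile normalization the split moved to 1012 higher against 414 lower. Across all 18 leave-one-out fits and 13 other settings, 758 genes held their call in every one that tested them, 522 higher and 236 lower. The genes given below as called are among these unless a limit is given.

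**Figure D2:**
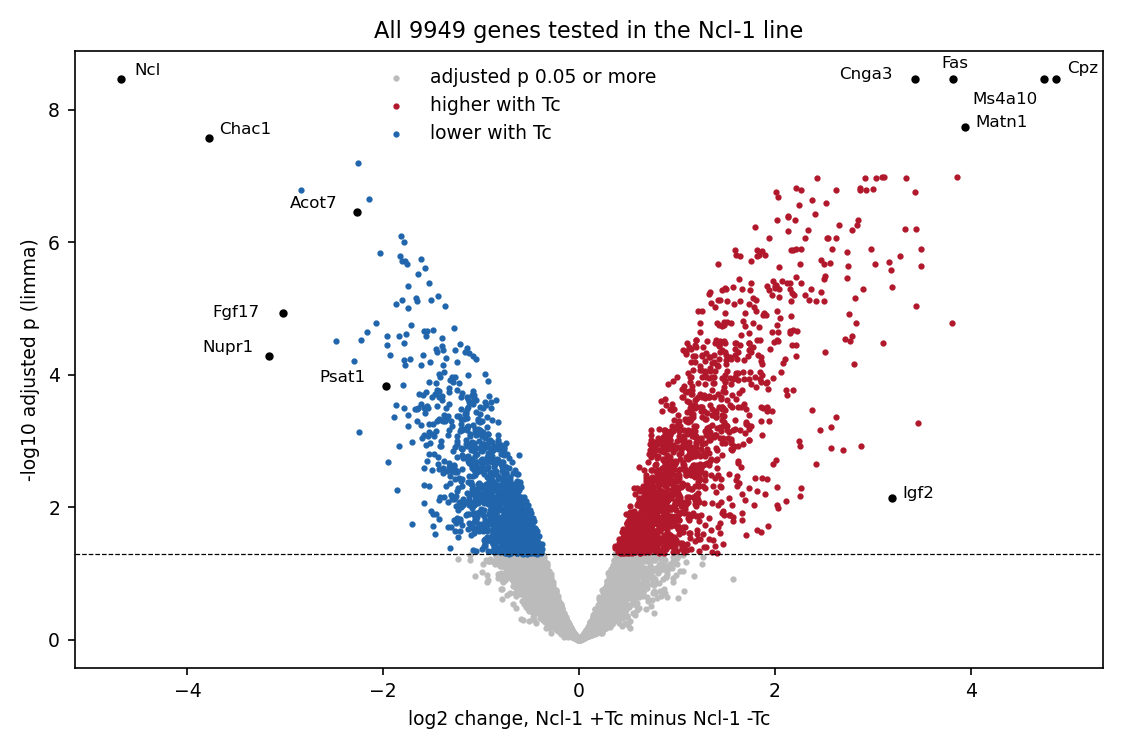
Each point is 1 of the 9949 genes, with its log2 change (horizontal axis, Ncl-1 +Tc minus Ncl-1 -Tc) and the -log10 of its limma adjusted p (vertical axis); red marks 1497 genes that were higher with Tc, blue 1337 that were lower, grey the rest, black the labelled genes. Rises reach 4.87 (Cpz, detected on 1 of 3 arrays without Tc), and apart from Ncl the falls reach -3.78 (Chac1).

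The genes that rose most encode proteins of many unrelated tissues. Cpz, a secreted carboxypeptidase with a frizzled-like domain, read 5.38, 4.60 and 4.68 without Tc, where 1 of 3 arrays detected it, and 9.94, 9.50 and 9.83 with Tc. Its +Tc arrays all lay over 4 units above its -Tc arrays, a rise of 4.87 ± 0.25 (limma adjusted p = 3.38e-09). Ms4a10, of a family of membrane-spanning proteins, rose from 7.44, 7.35 and 6.44 to 12.06, 11.47 and 11.92, by 4.74 ± 0.23. Replicate 2 was the lowest +Tc array for both genes, and the groups did not overlap.

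Fas, the death receptor that triggers apoptosis on binding its ligand, read 5.98, 6.21 and 6.25 without Tc and 10.27, 9.91 and 9.72 with Tc. The groups were more than 3 units apart, and the rise was 3.82 ± 0.19 (limma adjusted p = 3.38e-09). Proteins of the epidermis and other epithelia were also among the 15 largest rises. Casp14, a caspase of the outer epidermis, rose by 3.86 ± 0.26, Krt7, a keratin of simple epithelia, by 3.44 ± 0.38, and Dmkn, a secreted epidermal protein, by 3.46 ± 0.60. Krt7 was detected on 2 of 3 arrays without Tc, and the Dmkn probe used on none of the 3, so its change depends on the offset. Dmkn was also the least even of these rises, from 5.11, 5.04 and 4.73 to 8.65, 7.23 and 9.37.

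Further members of the top 15 belong to cartilage, gut, pigment cells, nerve and eye. Matn1, a cartilage matrix protein, rose by 3.94 ± 0.22, the gut hormone gene Sct by 3.81 ± 0.45, and the melanocyte antigen gene Mlana by 3.49 ± 0.33. Svop, of synaptic vesicles, rose by 3.44 ± 0.29 and Cnga3, the channel of cone photoreceptors, by 3.42 ± 0.16. Cnga3 was the most even of the 15, at 7.01, 6.73 and 6.49 without Tc and 10.42, 10.14 and 9.94 with Tc. Tbx4, a T-box factor of the hindlimb, rose by 3.43 ± 0.25, and Tap1, which carries peptides into the endoplasmic reticulum for display on major histocompatibility complex class I, by 3.34 ± 0.23. The complement gene C4a rose by 3.32 ± 0.28, but it has a near-identical neighbour, C4b, which the probe may not tell apart. Svop, Tap1 and C4a were each detected on 2 of 3 arrays without Tc.

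After Ncl itself, the largest falls were those of Chac1 and Nupr1. Chac1, a glutathione-degrading enzyme that ATF4 induces, read 11.81, 11.61 and 11.45 without Tc and 8.09, 8.44 and 7.02 with Tc. No +Tc array came within 3 units of a -Tc array, and the fall was 3.78 ± 0.22 on the log2 scale (limma adjusted p = 2.68e-08). Nupr1, a small nuclear protein induced by stress, went from 10.29, 10.52 and 9.86 to 6.41, 7.42 and 7.34, a change of -3.17 ± 0.42. Replicate 1 fell the most for Nupr1 and replicate 3 the most for Chac1, so no single pair carried both.

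The FGF ligand genes Fgf17 (-3.02 ± 0.34) and Fgf15 (-2.25 ± 0.41) were next to secreted regulators of other pathways. Notum, an enzyme that strips the lipid from Wnt proteins, changed by -2.30 ± 0.31. Gdf1, a TGF-beta family ligand that pairs with Nodal, changed by -2.26 ± 0.14, although its transcript overlaps that of Cers1. Fgf15 was uneven, at 7.20, 7.83 and 8.75 without Tc and 5.41, 6.34 and 5.28 with Tc, so its largest pair difference was in replicate 3. Among the other large falls were Hopx, a homeodomain protein without DNA binding (-2.48 ± 0.31), Acot7, an acyl-CoA thioesterase (-2.27 ± 0.18), and Pclaf, a partner of the replication clamp PCNA (-2.03 ± 0.18). Fam111a, a protease that acts at replication forks (-2.22 ± 0.28), Cryl1, a dehydrogenase of sugar metabolism (-2.17 ± 0.26), Gpr83, an orphan receptor (-2.14 ± 0.16), and Cplx1, a complexin of synaptic release (-2.07 ± 0.24), completed them with Ubap1l (-2.84 ± 0.21), which was detected on 1 of 3 arrays with Tc.

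**Figure D3:**
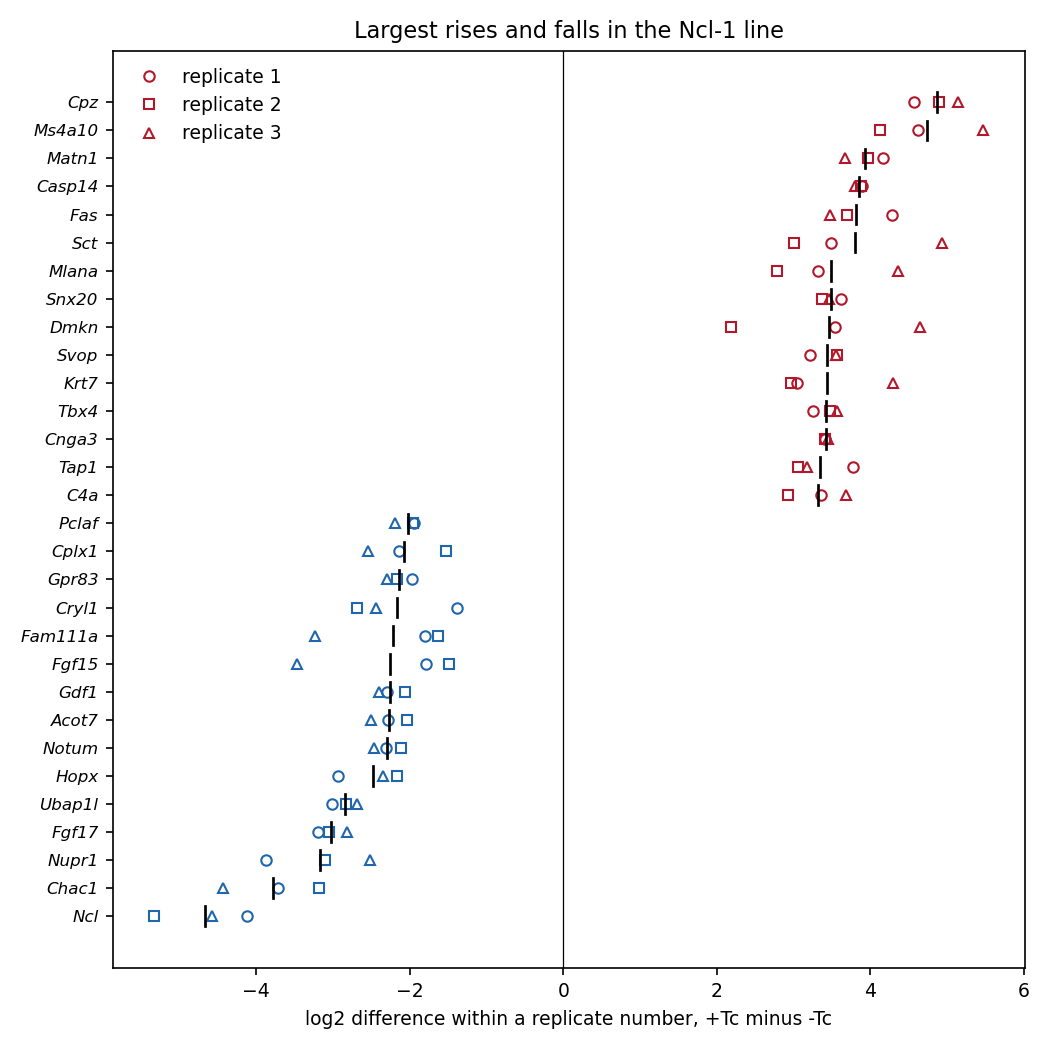
For the 15 largest rises (red) and 15 largest falls (blue) called with any 1 array left out, each symbol is the log2 difference within 1 replicate number (+Tc minus -Tc, horizontal axis) and the black tick is the change in the fit. All 3 pairs lie on the same side of 0 for each gene, with Cnga3 the tightest and Dmkn and Fgf15 among the widest.

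Some genes were detected in 1 of the 2 groups and not in the other. With Tc, 100 genes were detected on all 3 arrays and on none of the -Tc arrays by any of their probes, and 93 of them were called higher. In the opposite direction there were 36, of which 30 were called lower. With replicates 1 and 2 alone these numbers were 247 and 140. For such genes the change is a bound, the detected group against the lowest signal detected on each dim array. Snx20, a sorting nexin of blood cells, was at least 8.62-fold higher with Tc, from 4.91, 4.60 and 4.80 to 8.53, 7.97 and 8.27 (limma adjusted p = 1.24e-06). Sec14l3, a lipid-binding protein, was at least 5.85-fold higher, Myo7a, the myosin of hair cells, at least 5.54-fold, Vwce at least 3.73-fold and Shisal1 at least 3.56-fold. In the other direction Phf19, a partner of Polycomb repressive complex 2, was at least 2.85-fold lower with Tc, from 6.83, 6.68 and 6.36 to 4.98, 4.96 and 5.01. Ct55 was at least 2.84-fold lower, Neurog3, the endocrine pancreas factor, at least 2.41-fold and Susd1 at least 2.38-fold.

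Of 56 measured targets of p53 in 4 functional classes, 33 rose and 1 fell. Of 6 measured feedback genes 3 rose and none fell, of 13 cell cycle arrest genes 9 rose and none fell, of 17 death genes 11 rose and none fell, and of 20 repair and metabolism genes 10 rose and 1 fell. Their median changes were 0.51, 1.08, 0.69 and 0.82, against -0.04 over all genes and with 15% of all genes called higher. With any 1 array left out 2, 7, 8 and 10 of these rises held, and without the replicate block 2, 4, 6 and 7 genes rose. Many of these genes are used to define the p53 response in other systems, and p53 itself is not analysed here. Lists and members, here and below, were chosen with earlier results of these data known, so the comparison with all genes is a description.

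Within the feedback loop Mdm2, the ubiquitin ligase that degrades p53, was already bright without Tc at 11.94, 11.58 and 12.24 and reached 14.46, 13.97 and 14.24. The groups did not overlap, and the rise was 2.30 ± 0.24 (limma adjusted p = 6.31e-06). Ccng1, cyclin G1, rose by 1.41 ± 0.17. Among arrest genes Cdkn1a, the p21 inhibitor of cyclin-dependent kinases, rose from 10.93, 9.90 and 9.64 to 12.14, 11.53 and 12.01, by 1.73 ± 0.22. Its replicate 1 array without Tc was the highest of the 3 and still lay under all +Tc arrays. Dcxr, a carbonyl reductase, rose by 2.56 ± 0.24, Gadd45g, a growth arrest protein, by 2.24 ± 0.42, and the kinase gene Plk2 by 2.21 ± 0.18. In this class 4 measured members were not called, Gadd45a, a relative of Gadd45g, among them.

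Of the death genes other than Fas, the p53 relative Trp73 rose by 2.16 ± 0.22, with 1 of 3 arrays detecting it without Tc. Pidd1, a scaffold for caspase-2, rose by 2.06 ± 0.29. Apaf1, the core of the apoptosome, went from 10.24, 9.97 and 10.70 to 12.36, 11.80 and 12.17, a rise of 1.81 ± 0.20, and Trp53inp1, an autophagy and death cofactor, rose by 1.43 ± 0.18. In the repair and metabolism class Ddit4, an inhibitor of the growth kinase complex mTORC1, rose by 2.21 ± 0.29, Phlda3, an inhibitor of Akt, by 2.15 ± 0.22, Ephx1, an epoxide hydrolase, by 2.03 ± 0.15, and Lpin1, a phosphatidate phosphatase, by 1.98 ± 0.20. The single member that fell was Pank1, a kinase of coenzyme A synthesis (-1.47 ± 0.23), named because it is the exception.

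**Figure D4:**
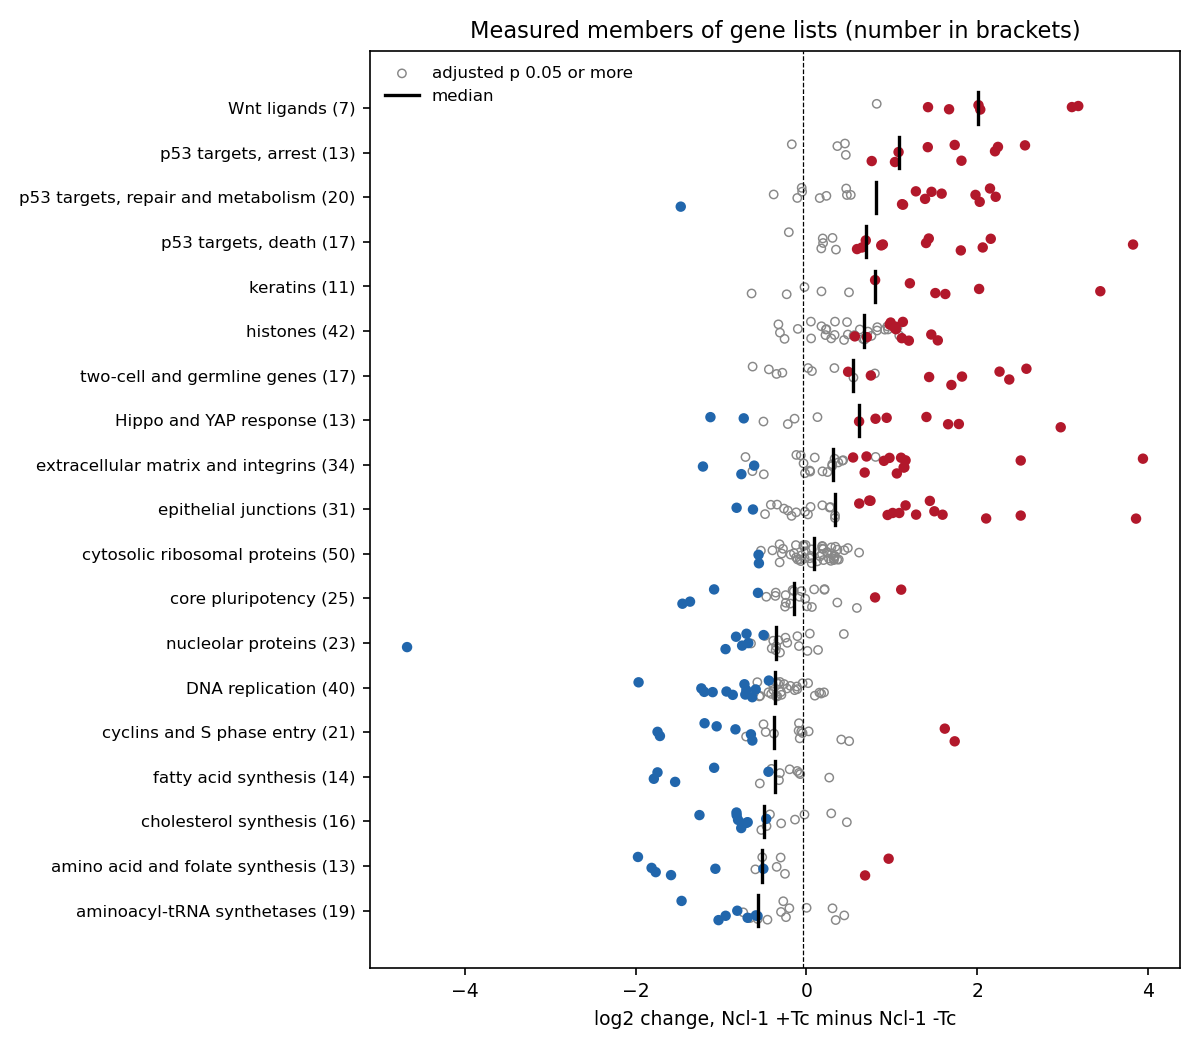
Log2 change (horizontal axis, Ncl-1 +Tc minus Ncl-1 -Tc) of every measured member of 19 gene lists (rows, number of members in brackets); filled red points were called higher, filled blue points lower, open points neither, black ticks are list medians and the dashed line is the median of all genes, -0.04. Medians run from 2.01 for Wnt ligands, of which 7 of 19 were measured and most were detected mainly with Tc, to -0.57 for aminoacyl-tRNA synthetases. Lists and members were chosen with earlier results of these data known.

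Genes that ATF4 is known to drive were called in both directions. In the ATF4 stress list 4 of 19 members fell and 3 rose, with a median of -0.18, and 3 of the falls (Chac1, Nupr1 and Gpt2) and 1 of the rises held with any 1 array left out. The rises also numbered 1 without the Ncl-1 arrays of replicate 2 -Tc or replicate 3 +Tc. Gpt2, a transaminase that makes alanine, changed by -1.07 ± 0.23. Atf4 transcript had a change of -0.51 ± 0.22 (limma adjusted p = 0.098), with overlapping groups. In the list for proteins that fold or degrade protein in the endoplasmic reticulum, 4 of 22 members fell and 2 rose, against 13.4% and 15% of all genes. None of these rises and 2 of these falls held in all leave-one-out fits. The 2 falls were Herpud1, which helps to clear misfolded protein (-1.55 ± 0.19), and Dnajc3, an inhibitor of the kinases that switch on ATF4 (-1.40 ± 0.22). Herpud1 was even across pairs, at 10.94, 10.96 and 11.11 without Tc and 9.44, 9.28 and 9.63 with Tc.

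The 3 stress genes Chac1, Nupr1 and Herpud1 share a sequence feature in their promoters. The 250 bases before each RefSeq start (assembly GRCm38.p6) hold TGATGCAA, an element known from ATF4 target genes, on the strand opposite to the gene. It is shown in capitals below as its reverse complement, with each promoter written 5′ to 3′ along the gene.
Chac1: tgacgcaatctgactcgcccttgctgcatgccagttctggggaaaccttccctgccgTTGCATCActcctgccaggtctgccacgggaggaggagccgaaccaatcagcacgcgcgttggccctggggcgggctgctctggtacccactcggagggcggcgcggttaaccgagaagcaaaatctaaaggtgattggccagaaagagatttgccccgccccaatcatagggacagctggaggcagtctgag
Nupr1: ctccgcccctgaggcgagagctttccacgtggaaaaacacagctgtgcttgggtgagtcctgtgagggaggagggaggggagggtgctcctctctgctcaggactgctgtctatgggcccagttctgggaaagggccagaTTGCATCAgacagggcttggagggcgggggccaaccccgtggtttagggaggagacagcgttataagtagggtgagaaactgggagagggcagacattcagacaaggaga
Herpud1: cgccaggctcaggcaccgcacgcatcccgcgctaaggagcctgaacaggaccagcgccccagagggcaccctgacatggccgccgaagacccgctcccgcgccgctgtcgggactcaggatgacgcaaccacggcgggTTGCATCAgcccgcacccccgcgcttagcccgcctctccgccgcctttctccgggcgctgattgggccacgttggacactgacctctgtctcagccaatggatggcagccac

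These windows lie at chr2:119350992-119351241 (plus strand), chr7:126625471-126625720 (minus strand) and chr8:94386179-94386428 (plus strand). The element begins 193, 110 and 112 bases before the start of Chac1, Nupr1 and Herpud1. Searched on both strands, it was present in 248 of 27025 genes with a promoter in the table (0.918%) and in 54 of the 8057 tested genes that had one (0.67%). It was in 6 of the 281 that fell at least 2-fold (2.14%) and in 6 of the 572 that rose at least 2-fold (1.05%). Those that fell include the 3 genes shown, and Vldlr of the ATF4 stress list, so the larger share is not independent of them. In the lists for ATF4 stress, amino acids, tRNA synthetases and the endoplasmic reticulum, 9 of 72 genes held the element (12.5%). The element is known from ATF4 target genes and these lists hold such genes, so this share is no separate result. Of the 72 genes 24 fell, and of the 9 with the element 5 fell, Aars and Vldlr besides the 3 shown. The fall of Vldlr was lost when either replicate 3 array of the Ncl-1 line, or its +Tc array of replicate 1, was left out, and without the replicate block. A match describes the letters in this window and does not show that a factor binds there.

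Of 13 measured genes for enzymes that make amino acids and folate units 6 fell and 2 rose, against 13.4% and 15% of all genes. The list median was -0.52, and 5 of the falls held with any 1 array left out and 4 without the replicate block. Psat1, of serine synthesis, was bright at 12.12, 12.92 and 14.08 without Tc and read 10.37, 11.45 and 11.38 with Tc. Its groups did not overlap although its 3 -Tc arrays differed by almost 2 units, and the change was -1.97 ± 0.29 (limma adjusted p = 0.000146). Aldh18a1, of proline synthesis, changed by -1.81 ± 0.17, Mthfd2, of mitochondrial folate metabolism, by -1.76 ± 0.22, and Shmt2, which turns serine into glycine in mitochondria, by -1.07 ± 0.19. Phgdh, the first enzyme of serine synthesis, changed by -1.59 ± 0.26, and its adjusted p was 0.100 without the replicate block.

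Amino acid transporters and tRNA charging enzymes showed the same mixture of falls and uncalled members. Counting calls that held with any 1 array left out, 3 of 13 transporters fell and 1 rose, and 4 of 19 aminoacyl-tRNA synthetases fell and none rose. Over all genes 5.67% fell and 9.08% rose by the same count. The cationic amino acid transporter gene Slc7a3 changed by -1.07 ± 0.19 and Slc38a5, a glutamine transporter, by -1.42 ± 0.35. Slc38a2, another neutral amino acid transporter, rose by 0.90 ± 0.18 and was the exception. Sars, the seryl-tRNA synthetase, went from 10.13, 10.53 and 10.01 to 8.53, 9.06 and 8.69, a change of -1.46 ± 0.19. Aars, the alanyl-tRNA synthetase, changed by -0.95 ± 0.16, with every +Tc array below every -Tc array for both. In all 7 of the 19 synthetases fell (median -0.57), 2 of them without the replicate block.

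Of 14 fatty acid synthesis genes 5 fell and none rose, against 13.4% and 15% of all genes, with a median of -0.37. With any 1 array left out 4 of these falls held, against 5.67% of all genes. Scd2, a desaturase, went from 8.89, 8.97 and 8.53 to 6.75, 7.86 and 6.42, a change of -1.79 ± 0.24 (limma adjusted p = 5.92e-05), and Acsl3, an acyl-CoA synthetase, changed by -1.54 ± 0.27. Of 16 cholesterol synthesis genes 8 fell and none rose (median -0.50), but 4 fell when either replicate 3 array of the Ncl-1 line was left out, and 1 without the replicate block.

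Signals of the early embryo moved in different directions. Of 19 listed Wnt ligand genes 7 were measured, and 6 of these rose and none fell, against 15% and 13.4% of all genes. The list median was 2.01. Wnt5a read 5.05, 5.36 and 5.04 without Tc and 8.72, 8.42 and 7.85 with Tc, a rise of 3.18 ± 0.31 (limma adjusted p = 2.60e-06). Wnt3a rose by 3.11 ± 0.39 and Wnt8a by 2.01 ± 0.41, from 5.27, 4.85 and 4.57 to 7.60, 5.88 and 7.25. Replicate 2 was the lowest +Tc array for both, and these 3 genes were detected on 1 of 3 arrays without Tc, so a ligand that passed the filter had mostly passed it through its +Tc arrays. Wnt8b was detected with Tc alone, at least 2.60-fold higher.

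Genes downstream of Wnt were called in both directions, but the rises were the less stable. Of 11 Wnt targets and inhibitors 3 rose and 6 fell, against 15% and 13.4% of all genes. Among the rises 1 held with any 1 array left out and none without the replicate block. The number that fell was 3 without Ncl-1 +Tc replicate 3. Those 3, which held in every fit, were Notum, the inhibitor gene Sfrp1 (-1.56 ± 0.32) and the transcription factor gene Lef1 (-1.38 ± 0.19), which was detected on 1 of 3 arrays with Tc. Of 19 FGF ligand and feedback genes 7 fell and 3 rose, with a median of -0.35, and without the replicate block 3 fell and 1 rose. Fgf10 fell from 8.19, 8.08 and 8.10 to 6.69, 7.09 and 5.83, by 1.59 ± 0.29 on the log2 scale, and the immediate early gene Fos rose by 1.80 ± 0.26.

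Of 19 Nodal and TGF-beta genes 4 rose and 4 fell, against 15% and 13.4% of all genes, with a median of -0.02. In every leave-one-out fit 4 rises and 3 falls held. Without the replicate block, and also under median scaling, 4 rose and 2 fell. Nodal, a ligand that embryonic stem cells make themselves, rose from 12.18, 11.72 and 11.54 to 13.47, 13.02 and 12.92, by 1.32 ± 0.21. Bmp7, another ligand, rose by 1.87 ± 0.30, the target genes Gsc and Id2 by 1.22 ± 0.28 and 1.31 ± 0.25, and Tgfbi, a secreted adhesion protein, changed by -1.46 ± 0.21. Each of these 5 genes kept its groups apart, and Gsc was detected on 2 of 3 arrays without Tc.

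Of 25 core genes of the pluripotency network 19 did not pass the test, a share near the 71.5% of all genes that did not. In every leave-one-out fit 2 rose and 2 fell, and the list median was -0.15. Pou5f1, which encodes Oct4, read 13.74, 13.39 and 12.26 without Tc and 13.50, 13.26 and 11.87 with Tc. The groups overlapped, and its change of -0.25 ± 0.18 did not pass (limma adjusted p = 0.316). Sox2, its partner, rose by 0.80 ± 0.18, but its adjusted p was 0.551 without the replicate block and the call was also lost under median scaling. Fbxo15, a target of both, rose by 1.11 ± 0.19, and Lin28a, which blocks let-7 microRNA, changed by -1.36 ± 0.23.

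Of 17 measured genes of the two-cell embryo and germ line 8 rose and none fell, against 15% and 13.4% of all genes. The list median was 0.55. The rises numbered 5 when the -Tc array of replicate 1 in the Ncl-1 line was left out, and 4 when its +Tc array of replicate 3 was. Dppa3, of the oocyte and early embryo, rose from 6.71, 6.47 and 6.11 to 8.72, 8.14 and 9.54, by 2.37 ± 0.39 (limma adjusted p = 0.000338). Tcstv1, a two-cell-stage gene, rose by 2.57 ± 0.50 within every pair, from 6.87, 6.59 and 9.26 to 9.69, 8.93 and 11.82. Its replicate 3 array without Tc lay above a +Tc array of replicate 2, so the groups overlapped, and its close relatives may share the probe.

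Epithelial and trophectoderm genes rose in part. Of 13 trophectoderm genes 4 rose and none fell, of 11 keratins 6 rose and none fell, and of 31 epithelial junction genes 14 rose, 12 of them in every leave-one-out fit, where 1 fell. Among all genes 15% rose and 13.4% fell, and 9.08% and 5.67% did so in every leave-one-out fit. The trophectoderm and keratin medians were highest in replicate 3, at 1.01 and 1.43, against -0.26 and 0.83 in replicate 1 and 0.20 and 0.41 in replicate 2. Tfap2c, a factor of trophectoderm and germ cells, was at 9.93, 9.90 and 11.04 without Tc and at 13.04, 13.13 and 13.41 with Tc. Its rise was 2.90 ± 0.30 (limma adjusted p = 5.06e-06), and the groups did not overlap. Igf2, a growth factor of placenta and embryo, rose by 3.19 ± 0.79 and was uneven, at 9.41, 8.56 and 12.13 with Tc. Lamb3, a laminin chain of epithelial anchors, rose by 2.51 ± 0.25, the tight junction gene Cldn6 by 2.10 ± 0.28, and the cadherin gene Cdh3 by 1.59 ± 0.20, and Ppl, a desmosomal plakin, rose in all 3 pairs. Besides Krt7, the keratins Krt19 (2.02 ± 0.47), Krt13 (1.62 ± 0.21) and Krt12 (1.51 ± 0.27) rose, with Krt13 detected on 1 and Krt19 on 2 of 3 arrays without Tc. Krt7, Krt13 and Krt19 thus passed the filter through their +Tc arrays. The platform held 22 keratins and 21 trophectoderm genes. Those undetected without Tc could be counted only if detected with Tc, which favours rises in both lists.

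Of 7 trophectoderm markers used to look for that cell type, Tfap2c and Krt7 rose, Cdx2, Eomes, Gata3 and Hand1 were detected on at most 1 array of either group and Elf5 on none. The summed linear signal of the 7 was 1118 to 2356 without Tc and 8762 to 12191 with Tc, and Tfap2c, which germ cells also express, made up 85.6% to 89.6% and 89.0% to 96.1% of it. Of 6 primitive endoderm markers only Gata6 (1.08 ± 0.58), Pdgfra and Dab2 passed the detection filter, and none was called. Of 4 mesoderm markers on the platform Tbx6 alone passed the filter, and it was not called. Markers that did not pass could not be called, and Gata4, Foxa2 and Mixl1 were detected on no Ncl-1 array. Of 5 neuroectoderm markers Nes alone passed the filter, and it was called (1.03 ± 0.34). That call was lost without the Ncl-1 arrays of replicates 1 and 2 -Tc or replicates 1 and 3 +Tc, each left out in turn. It was also lost without the replicate block. Pax6 and Neurog2 were detected on no Ncl-1 array. In the longer primitive endoderm list 3 of 15 measured genes rose, against 15% of all genes, with Krt19 higher in every leave-one-out fit. Col4a2 (1.15 ± 0.40) and Sparc (0.97 ± 0.28), of basement membrane and matrix, lost the call without Ncl-1 +Tc replicate 3. In the longer fibroblast or feeder list 2 of 5 measured genes rose in every such fit, the matrix gene Fbln2 (0.83 ± 0.21) and the protease gene Mmp2, and Twist1, a mesenchymal factor, changed by -0.97 ± 0.27, a call lost without either Ncl-1 array of replicate 2. The part of other cell types in these results was not tested.

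Genes of other lineages were called in both directions. Of 9 measured mesoderm genes, from 20 on the platform, 3 rose and 3 fell, against 15% and 13.4% of all genes. All 6 calls held in every leave-one-out fit and without the replicate block. The 3 rises passed the filter through their +Tc arrays alone and Meox1 through its -Tc arrays alone, which favours the direction of these calls. Besides Wnt3a and Gsc, Lhx1, a factor of the early streak, was at least 1.28-fold higher and detected with Tc alone. Lmo2, a blood cell factor, read 7.77, 7.29 and 7.63 without Tc and 5.90, 5.59 and 5.75 with Tc, a change of -1.82 ± 0.15, and the factors Meox1 and Isl1 changed by -1.67 ± 0.18 and -1.20 ± 0.21. Meox1 was detected on 1 of 3 arrays with Tc. In neuroectoderm 4 of 11 genes fell in every leave-one-out fit, against 5.67% of all genes. Gbx2 (-1.39 ± 0.24) and Sox11 (-1.23 ± 0.31) were among the 4.

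Of 21 cyclin and S phase entry genes 7 fell and 2 rose, against 13.4% and 15% of all genes. The list median was -0.38, and without the replicate block 4 fell. Ccne1, cyclin E1, went from 10.36, 10.89 and 10.33 to 8.53, 8.91 and 8.90, a change of -1.74 ± 0.19 (limma adjusted p = 9.85e-06). Ccne2, cyclin E2, changed by -1.72 ± 0.20 and Ccnd2, cyclin D2, by -1.05 ± 0.27, all 3 without overlap between groups. Of 40 DNA replication genes 12 fell and none rose, with a median of -0.37, 7 in every leave-one-out fit but 1 without the replicate block. That 1 was Pola2, a subunit of the primase complex (-0.94 ± 0.17). Cdc6, which loads the replicative helicase, changed by -1.96 ± 0.24 and Pcna, the replication clamp, by -1.20 ± 0.24, with adjusted p of 0.0880 and 0.523 without the block. Of 24 genes of G2 and mitosis none was called in every leave-one-out fit, and their median was -0.23.

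Of 23 nucleolar protein genes, Ncl included, 7 fell and none rose, against 13.4% and 15% of all genes, with a median of -0.36. The number that fell was 3 without Ncl-1 +Tc replicate 1 and 1 without the replicate block. Those that fell in every leave-one-out fit were Ncl, Bop1 (-0.95 ± 0.18) and Pes1 (-0.82 ± 0.17), which work together in making the large ribosomal subunit. Bop1 and Pes1 had adjusted p of 0.683 and 0.331 without the replicate block. Npm1, an abundant nucleolar chaperone, read 14.96, 15.26 and 15.38 without Tc and 14.85, 15.07 and 15.36 with Tc, a change of -0.11 ± 0.15 with overlapping groups (limma adjusted p = 0.621). Of 15 RNA polymerase I genes 3 fell and 1 rose. Taf1d, a promoter recognition subunit, fell in every leave-one-out fit (-0.85 ± 0.16), while the subunit genes Polr1c (-0.74 ± 0.20) and Polr2e (-0.41 ± 0.14) and the termination factor gene Ttf1 (0.78 ± 0.20) each lost the call without the -Tc array of replicate 2 in the Ncl-1 line and without the replicate block. Of 50 cytosolic ribosomal protein genes 2 fell, neither in every leave-one-out fit, and the range of changes was -0.56 to 0.62 with a median of 0.09.

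Histone genes rose mainly in replicate 3. Of 42 measured histone genes 12 passed the test, all higher, against 15% of all genes called higher. But the median within replicates 1, 2 and 3 was 0.27, 0.15 and 1.59. When either replicate 3 array of the Ncl-1 line was left out 1 gene passed, and without the +Tc array of replicate 1 it was 7. H3c10, which held in every leave-one-out fit, rose by 0.71 ± 0.18 and had an adjusted p of 0.0574 without the replicate block. Histone genes share much of their sequence, so their probes may read several copies, and in the Ncl-2 line none of the 42 was called.

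Of 18 cytosolic heat shock protein genes 4 rose and 1 fell in every leave-one-out fit, although the list median was -0.08. Over all genes 9.08% rose and 5.67% fell in every such fit. Cryab, a small chaperone, rose from 5.77, 6.70 and 5.93 to 8.41, 8.10 and 9.59, by 2.57 ± 0.45, and Hspa1a, the inducible Hsp70, by 2.01 ± 0.20. Serpinh1, needed for collagen folding, rose by 1.71 ± 0.30 and Hspb8, a further small chaperone, by 1.43 ± 0.33. Of 26 glutathione and oxidative stress genes 3 rose in every such fit, a share near the 9.08% of all genes that did. They included the glutathione peroxidases Gpx3, from 9.87, 9.25 and 8.97 to 12.71, 12.36 and 11.79 (2.92 ± 0.20), and Gpx2 (2.03 ± 0.25).

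Among genes of the Hippo and YAP response, 7 of 13 rose and 2 fell, against 15% and 13.4% of all genes, and the median was 0.62. In every leave-one-out fit 4 rises and 0 falls held. Axl, a receptor tyrosine kinase, rose from 6.08, 6.09 and 6.30 to 9.37, 8.99 and 9.03, by 2.98 ± 0.27 (limma adjusted p = 1.25e-06), with the replicates of each group close together. Amotl1, a scaffold at junctions, rose by 1.66 ± 0.27 and Ccn2, a secreted matrix-associated protein, by 1.40 ± 0.30. Of 34 extracellular matrix and integrin genes 12 rose and 3 fell (median 0.32), with Mmp2, a matrix protease, at 1.06 ± 0.19. With any 1 array left out 7 of these rises and 2 of these falls held, and without the replicate block 5 genes rose and none fell.

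The lysosomal glucosidase gene Gaa rose by 1.75 ± 0.18 and the autophagy kinase gene Ulk1 by 1.39 ± 0.17, in a list in which 7 of 35 genes rose and 1 fell in every leave-one-out fit. In the interferon list 3 of 18 genes rose in every such fit, Tap1 among them, and the RNA sensor gene Ddx58 changed by -1.45 ± 0.25. Among 18 imprinted growth genes 1 rose and 3 fell in every such fit, against 9.08% and 5.67% of all genes. Igf2, which drives growth, was the gene that rose, and Grb10 (-1.58 ± 0.19), Dlk1 (-1.20 ± 0.21) and Phlda2 (-1.16 ± 0.19), which with Grb10 restrains growth of embryo or placenta, were those that fell. Grb10 went from 13.06, 13.40 and 13.66 to 11.75, 12.04 and 11.58, and its groups did not overlap.

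How bright a gene was in cells never exposed to a nucleolin siRNA varied between the genes that rose and those that fell. Among the 9188 tested genes detected on all 3 arrays of the EGFP line without Tc, the share called higher in the Ncl-1 line was 17.5% in the dimmest of 5 equal bins and 7.18% in the brightest, and the share called lower was 11.3% and 12.4%. Of the 761 genes not detected on all 3 of those arrays, 285 were called higher (37.5%) and 51 lower (6.70%). Such genes passed the filter on the Ncl-1 arrays, so the high share is given as a description. It includes Snx20, Sec14l3 and Vwce, which were detected on none of the Ncl-1 -Tc arrays.

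The control for induction was the EGFP line, in which limma called 0 of 9949 genes (41 at an unadjusted p below 0.05). The response of the Ncl-1 line differed from that of the EGFP line for 997 genes (10%), 671 higher and 326 lower, by the test of the difference itself. Without EGFP -Tc replicate 2 that count was 660. The difference was -4.74 ± 0.31 for Ncl, 4.69 ± 0.35 for Cpz, 3.82 ± 0.27 for Fas, 2.27 ± 0.35 for Mdm2, -3.68 ± 0.32 for Chac1 and -3.01 ± 0.59 for Nupr1. Of the 136 genes named with a call in the Ncl-1 line, 116 passed this test as well and 20 did not, among them Gadd45g, Igf2, Gsc, Ccnd2, Gpt2, Taf1d, Sox11, Hspb8 and H3c10. In the lists for cholesterol synthesis, two-cell genes and histones, 1, 2 and 0 members did. In every class of p53 target given above the list median in the EGFP line was within 0.1 of 0.

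The second nucleolin siRNA gave a response in its own line that no gene's test told apart from the first. The Ncl-1 minus Ncl-2 response passed the threshold for 0 of 9949 genes (278 at an unadjusted p below 0.05), and for 3 genes with array weights. limma called 2802 genes in the Ncl-2 line (28.2%), and 2004 were called in the same direction in both lines, which is 70.7% of the Ncl-1 calls and 71.5% of the Ncl-2 calls. Another 2 genes were called in opposite directions. The lines do not share control arrays, but they share the replicate numbers that were used as a block. Ncl changed by -4.37 ± 0.22 in the Ncl-2 line, Fas by 3.94 ± 0.19 and Chac1 by -3.79 ± 0.22, as the plot of the 3 lines shows. A p above the threshold does not show that the siRNAs act alike. The difference was -0.68 ± 0.28 for Lef1, -0.72 ± 0.38 for Ccnd2, 0.75 ± 0.34 for Cplx1 and -0.66 ± 0.54 for Krt7.

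**Figure D5:**
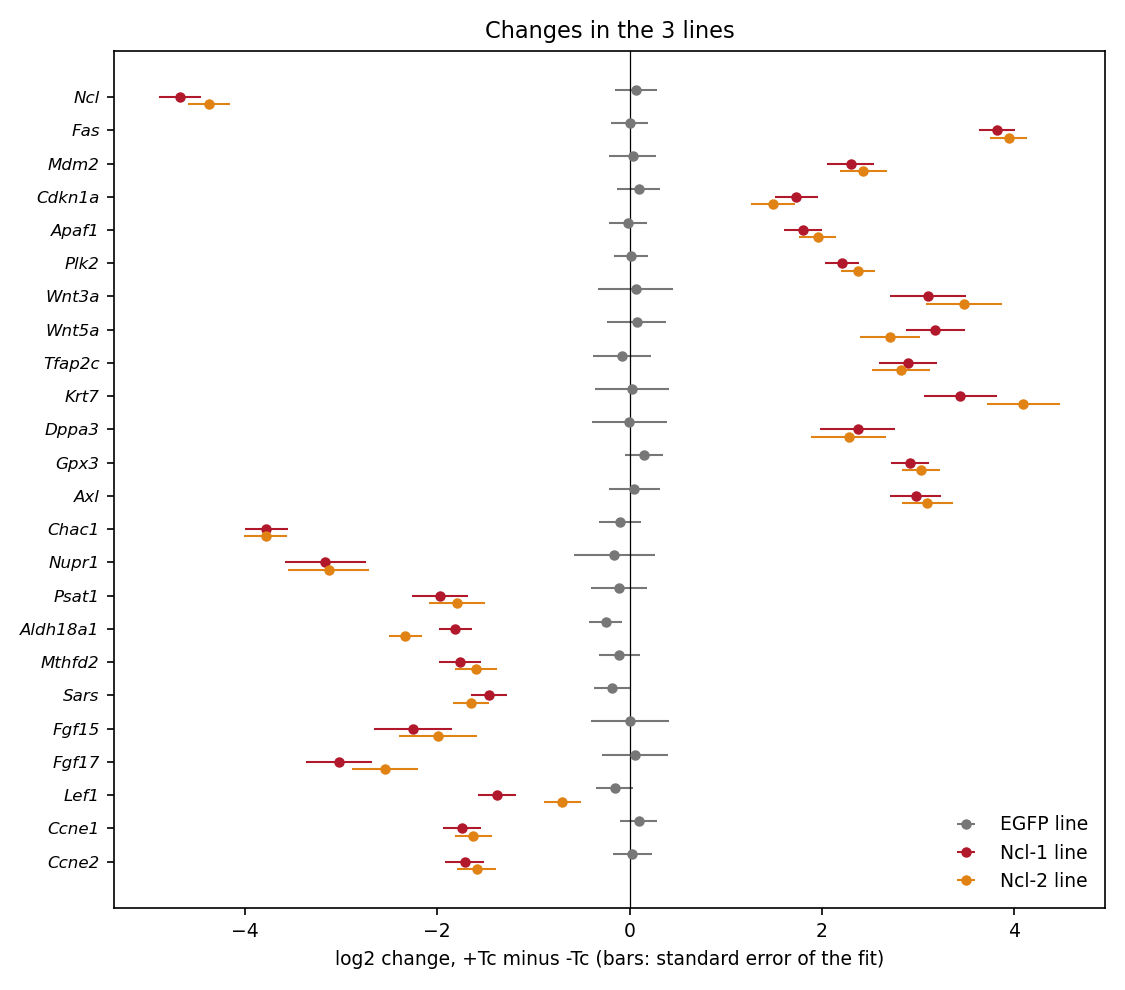
Log2 change with Tc ± SE of the fit (horizontal axis) of 24 genes in the EGFP (grey), Ncl-1 (red) and Ncl-2 (orange) lines, 3 arrays with and 3 without Tc in each. The EGFP values sit near 0 and the Ncl-1 and Ncl-2 values on the same side of 0 for each gene shown.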

How the data were processed

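Total RNA was amplified into biotinylated cRNA and read on 1-colour bead arrays, per the labels' protocols. The authors deposited probe intensity values not normalized between arrays, summarised with GenomeStudio 2010.1 per the submitters' processing notes, with a detection p-value per probe. The sources used here do not give their background option. A second deposited intensity table, normalized by the authors with no method named, served as an alternative. All 18 arrays were background corrected (limma 3.58.1 neqc, offset 16), quantile normalized and put on a log2 scale in R 4.3.3. GEO's platform annotation gave 34885 of 45281 probes 1 symbol, 18 several and 10378 none, and 34807 matched RefSeq genes (GRCm38.p6). Group means and the replicate number were fitted with lmFit and eBayes, two-sided, and the fit was tested on simulated data. The number of arrays limits precision, and no array was a copy of another.

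Deviations from group means correlated in every same-number pair, 0.46 to 0.83 in the Ncl-1 line. Pairs of different numbers ran from -0.88 to 0.72, with a median of -0.39. Deviations within a group sum to 0, which pushes these values negative, so they are no separate support for the pairing. The replicate numbers were used as pairs, and whether same-number samples were handled together is not known. Named genes are Ncl, the 15 largest rises and falls that held with any array left out, 5 detected in each group alone, the first 2 and the 5 of smallest p in each of 39 lists; the text takes its genes from these and from exceptions chosen after their values were seen. Members and lists were chosen with earlier results of these data known. Promoters are RefSeq's.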

Additional observations from a re-analysis of the deposited data

Results flagged for a closer look

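The response to Tc differed between the Ncl-1 and EGFP lines for 997 genes by limma's test of the difference. For Ncl the difference was -4.74, for Cpz 4.69, for Fas 3.82, for Mdm2 2.27, for Chac1 -3.68 and for Nupr1 -3.01 on the log2 scale, each larger than the spread between replicates. Among 2513 kept probes without 1 gene symbol, which the gene counts leave out, 571 were called in the Ncl-1 line (22.7%, 328 higher and 243 lower). In the EGFP line 0 of them were called by limma, with 6 at an unadjusted p below 0.05, and in the Ncl-2 line 622.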

How the results depend on the processing

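The fall of Ncl kept its call under all settings tried, between -4.85 and -4.46 with 1 array left out. The 2834 genes called in the Ncl-1 line became 877 with no replicate block, 1426 under median scaling and 4456 when every kept probe was tested, and 1964 (without Ncl-1 +Tc replicate 3) to 2964 (without Ncl-2 +Tc replicate 3) with 1 array left out. The 997 genes whose response differed from the EGFP line became 190 with no replicate block, 510 under median scaling, 1887 with array weights, and 660 (without EGFP -Tc replicate 2) to 1141 (without Ncl-2 +Tc replicate 3) with 1 array left out. Testing every probe adds tests by construction, and otherwise the cause was not tested. The Ncl-1 minus Ncl-2 count was 0 in all leave-one-out fits and 3 with array weights. For the 138 other genes given with a change, 4211 of 4275 repeats kept direction and side of the threshold, 62 lost the call, 2 gained it and none changed sign. Where the replicate numbers serve as pairs, the block lowers the error of the difference. Small changes, dim genes and any effect shared by both arrays of a pair are limited by 3 arrays per group, and the intensities hold no count from which an interval could be made.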
